A study of Mus musculus with 9 samples.

Results

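Nck2, Prrc1 and Nabp1 are 3 genes that stood far from wild type (WT) in 1 of the 3 groups of this mouse testis series. They were picked by their gene symbols because of large changes seen in the libraries labelled Gm1142 knockout alone. Their paralogues Nck1 and Nabp2 were added as comparison, which gives 5 genes of the 56691 in the count table, and all 5 were among the 17251 genes with enough counts to be tested. Their identifiers in the table are ENSMUSG00000066877.12 (Nck2), ENSMUSG00000032475.16 (Nck1), ENSMUSG00000024594.10 (Prrc1), ENSMUSG00000026107.12 (Nabp1) and ENSMUSG00000025374.14 (Nabp2). Messenger RNA was sequenced from testes on postnatal day 7 in libraries enriched with oligo(dT) beads. The groups are Gm1142-/- testes, labelled Gm1142 knockout, testes lacking both Gm1142 and Gm4779 (Gm1142-/- Gm4779-/-, the double knockout), and normal WT testes. Each group has 3 libraries. By these labels Gm1142-/- is common to both knockout groups, but their Gm1142 counts differed, as given below. The labels give no treatment, strain, litter, pooling or promoter-driven allele. They do not say whether replicates were separate animals, so a p-value here measures variation among these libraries alone, part or all of which may be technical.

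Nck2 and Nck1 encode adaptor proteins made of SH3 domains and an SH2 domain. The SH2 domain binds phosphotyrosine on activated receptors and docking proteins, and the SH3 domains bind regulators of actin assembly such as N-WASP and the PAK kinases, so that a receptor signal reaches the cytoskeleton. Nabp1 and Nabp2 encode small proteins with an OB fold that bind single-stranded DNA. Each can form the SOSS complex with Ints3 and Inip, a complex known for its work at DNA double-strand breaks. Prrc1 encodes a proline-rich protein found at the Golgi and at endoplasmic reticulum exit sites, where COPII coats form, and it has been linked to protein kinase A (PKA).

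The RefSeq start regions of the genes on chromosomes 1 and 9 are given here because Nck2 and Nabp1 shifted in opposite directions and Nck1 is the paralogue that passed the test. Each window runs from 250 bases before to 50 bases after an annotated start in GRCm38.p6. Capitals mark the letters CCAAT or GGGCGG on either strand.
Nck2, chr1:43445501-43445800, plus strand: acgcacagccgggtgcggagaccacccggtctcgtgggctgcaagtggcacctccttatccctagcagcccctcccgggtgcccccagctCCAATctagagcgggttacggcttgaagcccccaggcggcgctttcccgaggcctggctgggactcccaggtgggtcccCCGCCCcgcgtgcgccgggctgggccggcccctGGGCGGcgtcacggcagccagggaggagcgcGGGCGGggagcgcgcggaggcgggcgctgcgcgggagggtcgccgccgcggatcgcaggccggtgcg
Nabp1, chr1:51478350-51478649, minus strand: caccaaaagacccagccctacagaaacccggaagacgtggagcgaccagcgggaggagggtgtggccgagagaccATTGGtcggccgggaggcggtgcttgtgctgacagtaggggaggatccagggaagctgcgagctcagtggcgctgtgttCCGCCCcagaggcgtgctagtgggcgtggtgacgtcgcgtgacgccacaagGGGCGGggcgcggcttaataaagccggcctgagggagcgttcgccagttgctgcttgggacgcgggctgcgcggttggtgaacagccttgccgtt
Nck1, the upstream of 2 annotated starts, chr9:100546085-100546384, minus strand: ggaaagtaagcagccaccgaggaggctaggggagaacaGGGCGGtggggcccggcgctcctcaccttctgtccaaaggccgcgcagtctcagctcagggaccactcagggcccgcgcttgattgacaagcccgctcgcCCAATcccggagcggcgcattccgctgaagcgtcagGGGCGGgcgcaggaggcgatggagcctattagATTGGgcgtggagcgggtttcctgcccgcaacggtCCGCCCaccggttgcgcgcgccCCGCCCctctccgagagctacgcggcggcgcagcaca

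The 3 windows are rich in G and C, at 76.7% for Nck2, 66.0% for Nabp1 and 69.3% for Nck1, against a median of 52.7% over 32851 mouse windows of the same length. They hold 37, 28 and 33 CG dinucleotides, in the same order, against a median of 7. GGGCGG, the core of a GC box, was found 3 times in the Nck2 window, 2 times in the Nabp1 window and 4 times in the Nck1 window, and 35.7% of all windows hold it. CCAAT was found 1 time in the Nck2 and Nabp1 windows and 2 times in the Nck1 window, and 37.4% of all windows hold it. TATAAA (13.6% of all windows) and TGACGTCA (1.79%) were in none of the 3. The downstream Nck1 start had 39.0% G and C, and the 3 Nabp2 windows had 47.3% to 58.7%. No match overlapped another in the windows shown, and a match describes letters only.

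The libraries held 4370124 to 8359594 counts. The targeted genes had 0 counts in all 3 double knockout libraries. In the libraries labelled Gm1142 knockout, Gm1142 (listed as 8030474K03Rik) had 65, 46 and 50 counts, against 56, 50 and 41 in WT. The counts thus do not show the label. A count summed over a gene cannot see a small deletion, and the cause was not tested. Gm4779 had 88, 61 and 59 counts in these libraries, against 42, 48 and 53 in WT (log2 fold change 0.65, SE 0.30, adjusted p = 0.146 by edgeR). Directions below are those of libraries known by their label. These libraries also had 32.5% to 38.9% mitochondrially encoded counts, against 27.1% to 32.9% in the double knockout and 29.4% to 32.7% in WT. No marker of the 10 lists was at 0 in all libraries. Summed over 6 germ-cell markers, the level was 271 to 358 CPM (counts scaled to a common library size) in the libraries labelled Gm1142 knockout, 552 to 689 CPM in the double knockout and 362 to 413 CPM in WT. For 5 Leydig markers it was 158 to 258, 230 to 428 and 260 to 483 CPM in the same order of groups, and for 6 Sertoli markers 809 to 971, 897 to 1210 and 966 to 1075 CPM. The 3 red cell markers summed to 60.9 to 93.6, 44.0 to 58.0 and 47.7 to 51.7 CPM, and the 3 duct markers to 27.9 to 35.9, 14.6 to 27.4 and 37.6 to 47.2 CPM. By edgeR against WT, of 6 tested Sertoli markers 1 was called higher and 2 lower in the libraries labelled Gm1142 knockout. Of 4 tested Leydig markers 2 were lower, of 6 germ-cell markers 1 was higher and 1 lower, and of 3 red cell markers 1 was higher. No tested marker of the other lists was called. Among all 17251 tested genes, 18.5% were called in this comparison, 10.2% higher and 8.38% lower. With so few calls in such short lists, no shift of a cell type is read from them. Only 1 of the 6 T-cell markers and 0 of the 3 spermatid markers had enough counts to be tested, so those lists could hardly give a call. The 3 peritubular markers summed to 348 to 504, 357 to 520 and 396 to 493 CPM, the 3 endothelial markers to 47.3 to 113, 77.5 to 104 and 74.9 to 93.2 CPM, and the 3 spermatid markers to 1.75 to 3.58, 0.680 to 1.53 and 1.08 to 2.30 CPM. The 6 T-cell markers summed to 6.60 to 8.95, 7.25 to 7.85 and 7.97 to 9.07 CPM, and the 4 macrophage markers to 35.3 to 37.7, 33.7 to 47.8 and 34.5 to 38.7 CPM. The part of these shares and sums in the results below was not tested. In bulk RNA, fewer cells of a type and less RNA per cell cannot be told apart.

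Nck2 was the most shifted of the 5. In counts it had 632, 650 and 633 in the libraries labelled Gm1142 knockout, 74, 171 and 79 in the double knockout, whose replicate 2 is the deepest library, and 97, 73 and 69 in WT. On library sizes scaled by TMM, these were 123, 166 and 135 CPM in libraries labelled Gm1142 knockout, 14.2, 19.3 and 17.9 CPM in the double knockout and 18.6, 14.4 and 14.9 CPM in WT. All 3 libraries labelled Gm1142 knockout lay above all 6 others, while the double knockout and WT overlapped. The raw counts of the 3 high libraries were nearly level, and their spread in CPM follows the scaled depth, which was lowest in replicate 2.

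The fitted log2 fold change of Nck2 was 3.14 (SE 0.18) in the libraries labelled Gm1142 knockout against WT, or 8.83-fold. Against the double knockout it was 3.03 (SE 0.17), and the double knockout against WT stood at 0.11 (SE 0.18). These values chose the gene and are given without a test. Among all 17251 genes, the log2 fold change against WT was the 44th highest. The comparisons share libraries with each other, so they are not independent views of the change.

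Nck1, which was not chosen by its values, was also higher. A gene was called, here and below, where its p-value adjusted over all 17251 tested genes was under 0.05. It had 55.0, 54.5 and 48.6 CPM in libraries labelled Gm1142 knockout, 27.9, 35.0 and 26.3 CPM in the double knockout and 27.0, 33.5 and 28.6 CPM in WT. The libraries labelled Gm1142 knockout lay above all 6 others, and the other groups overlapped. Nck1 rose in the libraries labelled Gm1142 knockout against WT by a log2 fold change of 0.82 (SE 0.17, edgeR quasi-likelihood adjusted p = 0.00159), or 1.77-fold. Against the double knockout it was higher by 0.81 (SE 0.17, adjusted p = 0.00174 by edgeR). In the double knockout against WT the value was 0.01 (SE 0.17, adjusted p = 0.991 by edgeR).

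**Figure D1:**
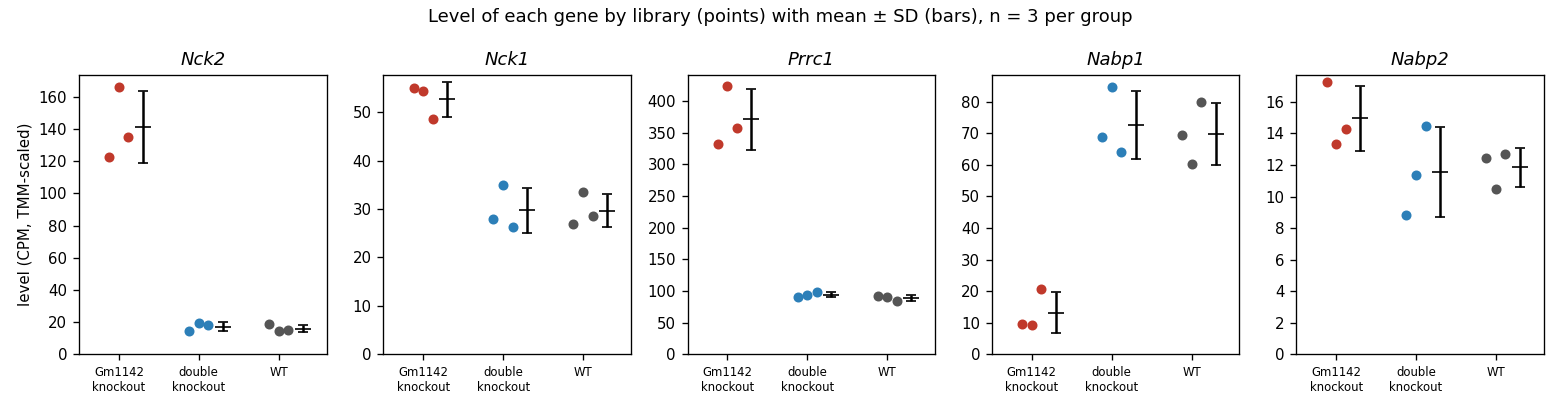
Level of each of the 5 genes in CPM on TMM-scaled library sizes (vertical axes, each from 0) by group (horizontal axis); points are libraries, bars mean ± SD of 3. Nck2, Nck1 and Prrc1 are higher and Nabp1 is lower in all 3 libraries labelled Gm1142 knockout than in the other 6, while the double knockout and WT overlap for each gene.

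Prrc1 was the most abundant of the 5 in CPM. It had 332, 425 and 357 CPM in libraries labelled Gm1142 knockout, 89.7, 93.9 and 97.8 CPM in the double knockout and 92.3, 89.7 and 83.8 CPM in WT. The first group lay above the other 6 libraries with a wide gap, and the double knockout and WT overlapped within a narrow span. As for Nck2, the raw counts of the high libraries were close to level, at 1709, 1661 and 1677. The log2 fold change was 2.07 (SE 0.12) in the libraries labelled Gm1142 knockout against WT, or 4.19-fold, and 1.98 (SE 0.12) against the double knockout. In the double knockout against WT it was 0.08 (SE 0.12). These values are a description of a gene chosen for them.

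Nabp1 went the other way. It had 50, 36 and 97 counts in the libraries labelled Gm1142 knockout, 359, 750 and 283 in the double knockout and 363, 305 and 371 in WT. In CPM these were 9.71, 9.20 and 20.7 in the libraries labelled Gm1142 knockout, 68.7, 84.6 and 64.1 in the double knockout and 69.5, 60.1 and 79.9 in WT. The libraries labelled Gm1142 knockout lay below all others, with replicate 3 well above the other 2. The log2 fold change was -2.39 (SE 0.23) against WT, a 5.26-fold lower level, and -2.454 (SE 0.23) against the double knockout, both given as a description. With that replicate 3 left out, the value was -2.89 against WT and -2.94 against the double knockout. The double knockout against WT stood at 0.06 (SE 0.20).

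Nabp2, the paralogue of Nabp1, had 17.3, 13.3 and 14.3 CPM in libraries labelled Gm1142 knockout, 8.80, 11.4 and 14.5 CPM in the double knockout and 12.4, 10.4 and 12.7 CPM in WT. The libraries labelled Gm1142 knockout lay just above WT and overlapped the double knockout. The log2 fold change was 0.34 (SE 0.25, adjusted p = 0.394 by edgeR) against WT and 0.38 (SE 0.25, adjusted p = 0.316 by edgeR) against the double knockout. In the double knockout against WT it was -0.04 (SE 0.25, adjusted p = 0.975 by edgeR). None of the 3 passed, which does not show that the levels were alike. Exons of Nabp2 overlap those of Ankrd52 on the opposite strand in the GENCODE annotation of GRCm38, and the strand setting of the counting is not given in the sources used here, so the Nabp2 counts are uncertain. Ankrd52 itself had a log2 fold change of 0.04 in the libraries labelled Gm1142 knockout against WT (edgeR adjusted p = 0.86).

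Of the paralogues, 1 of 2 passed in the libraries labelled Gm1142 knockout against WT, where 18.5% of all tested genes were called (3196 genes, or 2037 without WT 1; 10.2% higher and 8.38% lower). Against the double knockout 1 of 2 passed, with 19.1% of all genes called (3301 genes, or 2128 without double knockout 2). Between the double knockout and WT 0 of 2 passed by edgeR, with 0.0927% of all genes called, and 0 had an unadjusted p under 0.05 or passed with DESeq2 or limma-voom. All 5 genes had libraries labelled Gm1142 knockout that did not overlap WT, and 35.9% of all tested genes had that in CPM. Against the double knockout 4 of the 5 had it, beside 33.4% of all genes, and 0 of the 5 separated the double knockout from WT, beside 15.9% of all genes. Since 3 of the 5 were chosen for large changes in the libraries labelled Gm1142 knockout and not in the double knockout, nothing is read from these counts.

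**Figure D2:**
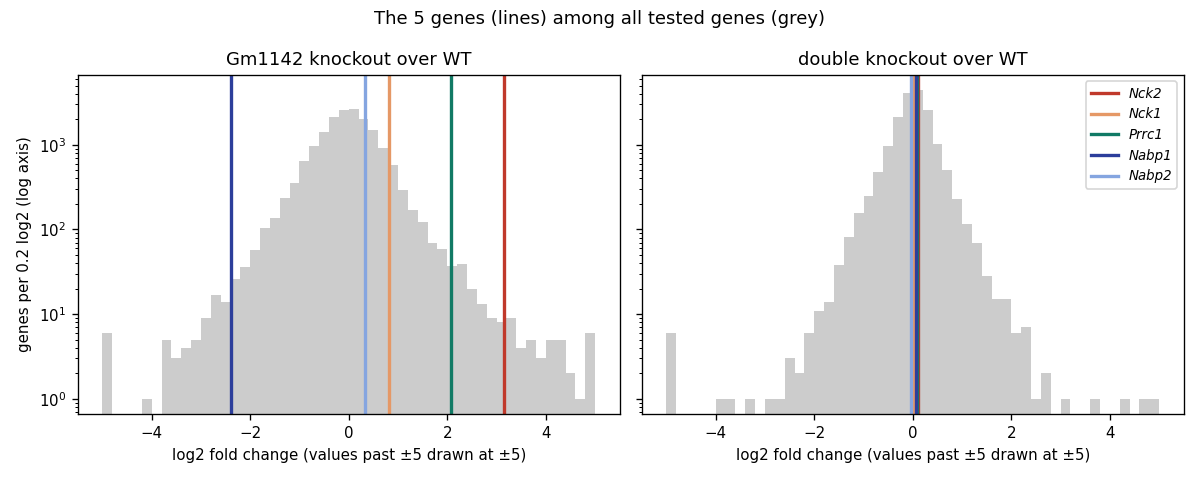
Histogram of log2 fold changes of all 17251 tested genes (grey; vertical axis, genes per bin, on a log scale) in the libraries labelled Gm1142 knockout over WT (left) and the double knockout over WT (right), with the 5 genes as lines. Nck2 at 3.14 and Nabp1 at -2.39 lie in the tails on the left, and all 5 lie between -0.04 and 0.11 on the right.

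Ratios within a library need no scaling between libraries. Per kilobase of annotated exon, the ratio of Nck2 to Nck1 was 2.40, 3.28 and 2.99 in the libraries labelled Gm1142 knockout, 0.545, 0.593 and 0.733 in the double knockout and 0.740, 0.462 and 0.558 in WT. Nck1 was thus the higher paralogue in all 6 libraries of the double knockout and WT, and Nck2 in all 3 labelled Gm1142 knockout. Summed, the 2 adaptors came to 194 ± 23.4 CPM in libraries labelled Gm1142 knockout, 46.8 ± 6.51 CPM in the double knockout and 45.6 ± 2.20 CPM in WT (SD, n = 3 each). The ratio of Nabp1 to Nabp2 was 0.166, 0.204 and 0.427 in the libraries labelled Gm1142 knockout, 2.30, 2.19 and 1.30 in the double knockout and 1.65, 1.70 and 1.85 in WT. The order of this pair turned in the opposite sense, with Nabp1 below Nabp2 only in the 3 libraries labelled Gm1142 knockout. Their sum was 28.1 ± 6.30 CPM in those libraries, 84.0 ± 10.4 CPM in the double knockout and 81.7 ± 11.0 CPM in WT (SD, n = 3 each). These ratios contain the genes that were chosen and are given without a test.

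**Figure D3:**
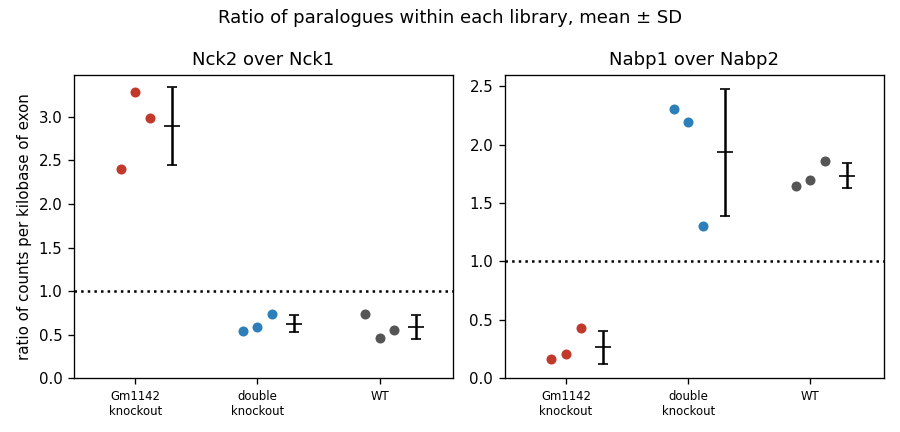
Ratio of counts per kilobase of exon for Nck2 over Nck1 (left) and Nabp1 over Nabp2 (right) in each library, by group, with mean ± SD of 3; the dotted line marks equal levels. The 3 libraries labelled Gm1142 knockout lie above the line on the left and below it on the right, and the other 6 lie on the opposite side in both.

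The order of all 5 genes by level per kilobase also differed between the groups. In the libraries labelled Gm1142 knockout, Nck2 (31.7 ± 5.03 CPM per kilobase, SD, n = 3) and Prrc1 (31.0 ± 4.0) were highest and overlapped. Nck1 (11.0 ± 0.741), Nabp2 (5.96 ± 0.830) and Nabp1 (1.55 ± 0.762 CPM per kilobase) followed, each separate from the next. For the double knockout, Nabp1 (8.53 ± 1.27) was highest and overlapped Prrc1 (7.82 ± 0.338), followed by Nck1 (6.20 ± 0.964), Nabp2 (4.61 ± 1.14) and Nck2 (3.84 ± 0.595 CPM per kilobase), where the last 3 overlapped from one to the next. WT had that order too, with Nabp1 at 8.22 ± 1.16, Prrc1 at 7.39 ± 0.363, Nck1 at 6.20 ± 0.707, Nabp2 at 4.73 ± 0.493 and Nck2 at 3.58 ± 0.514 CPM per kilobase. There only Nck1 and Nabp2 were separate neighbours. Lengths are those of all annotated exons in GRCm38, and the submitters counted on mm39, so these levels rest on an annotation that may differ from theirs.

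Nck2 and Nabp1 both lie on chromosome 1, and Prrc1 on chromosome 18. The tested genes next to each, up to 3 on either side, were read beside them. Slc39a10, a zinc transporter, is the third tested gene before Nabp1 and lies 4573 kilobases from it in GRCm38. It fell to 51.7, 31.4 and 41.1 CPM in libraries labelled Gm1142 knockout, against 68.9, 64.7 and 67.8 CPM in WT (log2 fold change -0.69, SE 0.18, adjusted p = 0.0124 by edgeR). That call was lost when their replicate 2 was left out (edgeR adjusted p = 0.0522) and without WT 1 (0.0506). It was also called against the double knockout (-0.66, SE 0.18, adjusted p = 0.0152 by edgeR), and lost without Gm1142 knockout 2 (0.0722), Gm1142 knockout 3 (0.0532), double knockout 2 (0.114) or both replicates 2 (0.27). The nearest genes on each side of Nabp1 did not pass. Gm17767 was at -0.88 (SE 0.64) and Cavin2, a gene of the caveolar coat, at -0.56 (SE 0.24).

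The 6 genes around Nck2 had log2 fold changes of -0.21 to 0.85 and the 6 around Prrc1 of -0.31 to 0.25, and none of the 12 passed by edgeR, beside 18.5% of all tested genes. Gm38228, a transcript annotated inside Nck2 on the same strand without shared exon bases, had 9.52, 18.2 and 12.8 CPM in libraries labelled Gm1142 knockout, against 11.9, 11.0 and 12.1 CPM in WT. Its log2 fold change was 0.20 (SE 0.29, adjusted p = 0.686 by edgeR), with libraries labelled Gm1142 knockout on both sides of WT, beside 3.14 for the gene that contains it. The antisense transcript 4930511M06Rik inside Prrc1 was at -0.29 (SE 0.58, adjusted p = 0.783 by edgeR) on few counts. Against the double knockout, Slc12a2, 486 kilobases after Prrc1, was lower (-0.80, SE 0.20, adjusted p = 0.00902 by edgeR). This call was lost without double knockout 1 (0.054) and without replicate 2 of both knockout groups (0.0633). Slc12a2 was not called against WT (-0.31, SE 0.21, adjusted p = 0.326 by edgeR). The double knockout against WT stood at 0.48 (SE 0.20, adjusted p = 0.482 by edgeR).

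**Figure D4:**
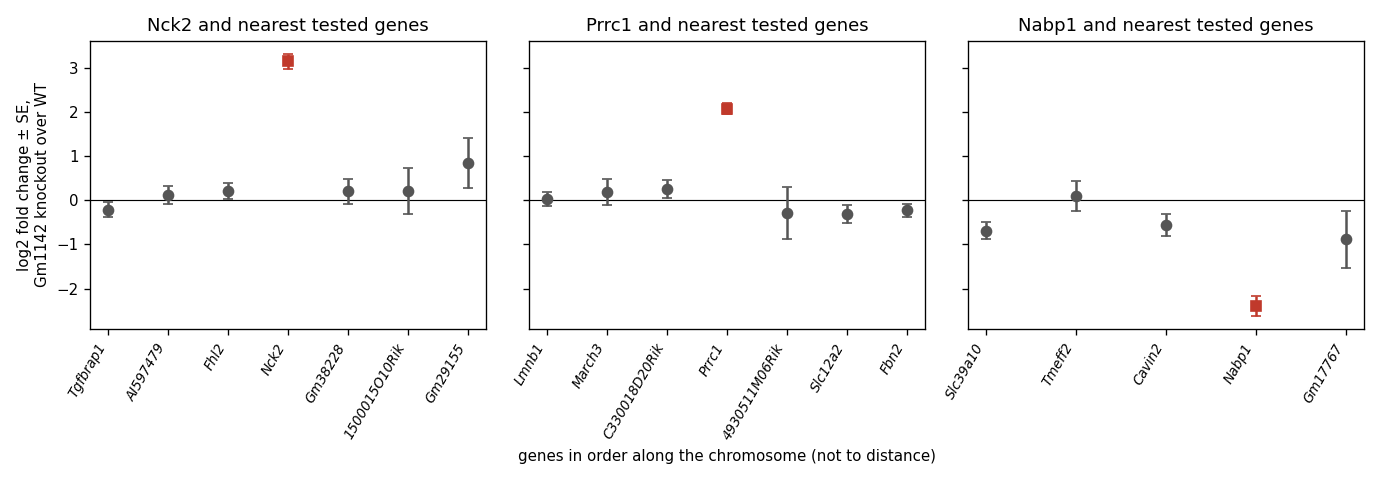
Log2 fold change ± SE in the libraries labelled Gm1142 knockout over WT (vertical axis) for Nck2, Prrc1 and Nabp1 (red squares) and up to 3 nearby tested genes on either side (grey points), in chromosome order and not to distance. The neighbours shown lie between -0.88 and 0.85, while the 3 genes lie at 3.14, 2.07 and -2.39.

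The genes whose pattern over the 9 libraries was most like that of each gene were found by the root-mean-square distance of log2 CPM, centred on the WT mean. For Prrc1 they were Ccdc15 (distance 0.149), Sinhcaf (0.184), Ssbp1 (0.208), Malsu1 (0.228) and Fchsd2 (0.239), where the median gene was at 1.25. Sinhcaf, a subunit of the SIN3-HDAC complex, had 202, 229 and 206 CPM in libraries labelled Gm1142 knockout, 72.1, 73.3 and 63.9 CPM in the double knockout and 54.2, 59.9 and 57.1 CPM in WT. Fchsd2, a regulator of actin at membranes, had 146, 155 and 162 CPM, 46.9, 50.1 and 51.9 CPM and 40.0, 42.4 and 54.5 CPM in the same order. For both, the libraries labelled Gm1142 knockout stood well above the other 6, which follows from their being picked for likeness to Prrc1. Likeness in level says nothing of shared function.

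For Nabp1 the nearest were Zfp54 (0.275), Rasd1 (0.380), Zbtb26 (0.406), Ezh2 (0.411) and AC122821.1 (0.426), with the median gene at 1.48. Ezh2, the histone methyltransferase of a Polycomb complex, had 42.5, 39.1 and 52.2 CPM in libraries labelled Gm1142 knockout, 150, 149 and 135 CPM in the double knockout and 175, 174 and 180 CPM in WT. Zbtb26, a zinc-finger gene, had 9.32, 6.90 and 14.3 CPM, 37.3, 37.4 and 38.0 CPM and 40.6, 38.0 and 32.1 CPM in the same order. In both, as in Nabp1, replicate 3 was the highest of the 3 low libraries. Such a likeness is favoured by the way these genes were picked, over the same libraries, and nothing is read from it. The nearest to Nck2 were AC123927.3 (0.350), AC123927.1 (0.376), Rpl13-ps1 (0.411), Ftcd (0.482) and Lrrc75aos1 (0.502), all at 1.85 CPM or less on average in the double knockout, with the median gene at 1.85. Prrc1 was at 0.622 from Nck2. Fits at such levels rest on few counts, and Rpl13-ps1 is a pseudogene that can share reads with its parent.

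Genes of pathways around these proteins, not all of them binding partners, were read from 8 lists that hold 129 genes, of which 127 were tested. In the libraries labelled Gm1142 knockout against WT, 21 of the 127 were called, 14 higher and 7 lower, or 16.5% beside 18.5% of all tested genes. Their median log2 fold change was 0.01, beside -0.01 over all tested genes. Without WT 1, 11 were called. Set against the double knockout, 31 of the 127 were called, 14 higher and 17 lower, or 24.4% beside 19.1% of all tested genes, with a median of -0.08 beside -0.03. These fell to 18 without Gm1142 knockout 2, 17 without double knockout 2 and 15 without both. Between the double knockout and WT 0 of the 127 were called by edgeR, beside 0.0927% of all tested genes, with a median of 0.10 beside 0.02. DESeq2 called 1, beside 63 over all genes, and limma-voom called 0, beside 15. An unadjusted edgeR p under 0.05 was found for 12 of the 127. Of these, Rpa1 (unadjusted p = 0.0486 by edgeR) ranked only 1517th by p among all 17251 genes, so many other genes lay under 0.05 too.

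Among genes of the SOSS and Integrator complexes, 1 rose, 2 fell and 12 did not pass in the libraries labelled Gm1142 knockout against WT (median -0.10). The called share was 20%, beside 18.5% of all tested genes. Ints3, the scaffold that holds SOSS together, fell to 53.0, 55.7 and 60.9 CPM in libraries labelled Gm1142 knockout, against 79.8, 77.5 and 84.0 CPM in WT (log2 fold change -0.51, SE 0.14, adjusted p = 0.0118 by edgeR). The groups did not overlap, but without WT 3 the edgeR adjusted p was 0.0516. Inip, the third SOSS subunit, rose to 105, 141 and 108 CPM in libraries labelled Gm1142 knockout, against 69.3, 87.3 and 72.6 CPM in WT (0.63, SE 0.15, adjusted p = 0.00453 by edgeR), again without overlap. Ints10, an Integrator subunit, fell to 29.9, 23.8 and 28.1 CPM, against 50.5, 52.6 and 40.7 CPM in WT (-0.81, SE 0.17, adjusted p = 0.00165 by edgeR). Ints6 was at -0.06 (SE 0.13, adjusted p = 0.814 by edgeR). Among the SOSS transcripts, Ints3 fell and Inip rose, beside Nabp1, which was chosen for its lower level, and Nabp2, which did not pass.

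Of 17 genes of single-stranded DNA and break repair, 3 rose, none fell and 14 did not pass in the libraries labelled Gm1142 knockout against WT (median 0.10). The called share was 17.6%, beside 18.5% of all tested genes. Ssbp1, the mitochondrial single-stranded DNA-binding protein, had 175, 202 and 171 CPM in libraries labelled Gm1142 knockout, against 47.7, 60.7 and 48.4 CPM in WT (1.80, SE 0.14, adjusted p = 1.98e-08 by edgeR). It is also among the genes most like Prrc1. Exo1, a nuclease that resects broken ends, rose by 0.97 (SE 0.15, adjusted p = 1.34e-04 by edgeR) and the helicase gene Blm by 0.71 (SE 0.14, adjusted p = 0.00129 by edgeR). Rpa1 and Rpa2, subunits of the main single-stranded DNA-binding complex of the nucleus, were at 0.04 (SE 0.18) and 0.22 (SE 0.14) and did not pass. Against the double knockout, 4 of the 17 were higher and 3 lower, or 41.2% beside 19.1% of all tested genes. The number of calls fell to 3 without replicate 2 of both knockout groups, and was 5 to 7 with 1 library left out. The 3 lower genes were not called against WT, where they stood at -0.36 to -0.25. In the double knockout against WT these 3 were at 0.24 to 0.38 and not called. The list median in that comparison was 0.24, beside 0.02 over all tested genes.

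Around the NCK adaptors, the receptor list had 1 of 11 lower, or 9.09% beside 18.5% of all tested genes. This was Igf1r, which fell to 69.8 ± 4.05 CPM in libraries labelled Gm1142 knockout, against 99.2 ± 4.503 CPM in WT (SD, n = 3 each; -0.51, SE 0.13, adjusted p = 0.00903 by edgeR). Of 11 other adaptor and docking genes, 2 rose and 2 fell (median 0.02), or 36.4% called beside 18.5% of all tested genes. Only 2 were called when Gm1142 knockout 3 was left out and 1 when WT 1 was. Dok1, a docking protein that dampens tyrosine kinase signals, rose to 17.1, 23.8 and 21.1 CPM, against 6.51, 7.49 and 5.60 CPM in WT (1.65, SE 0.30, adjusted p = 5.3e-04 by edgeR). The other called adaptors were Shc1 (0.39, SE 0.12), Crk (-0.65, SE 0.20) and Crkl (-0.77, SE 0.20), each lost when WT 1 was left out. Shc1 was also lost without Gm1142 knockout 3, WT 2 or WT 3, and Crk without Gm1142 knockout 2 or 3. Of 35 genes that link NCK to actin, 4 rose and 1 fell (median 0.06), or 14.3% called beside 18.5% of all tested genes. Among the libraries labelled Gm1142 knockout, leaving out replicate 1 left 2 calls and leaving out replicate 2 or 3 left 3. Leaving out WT 3 left 3 calls, and leaving out WT 1 or WT 2 left 1. Arpc1b, a subunit of the actin-nucleating Arp2/3 complex, rose to 157, 184 and 165 CPM, against 91.7, 95.4 and 98.4 CPM in WT (0.82, SE 0.12, adjusted p = 7.17e-05 by edgeR). Abi1 (0.41, SE 0.12) and Wasf1 (-0.77, SE 0.24), of the WAVE complex, and Arpc2 (0.48, SE 0.15) of the Arp2/3 complex were also called. Wasl, which encodes N-WASP, was at 0.10 (SE 0.15, adjusted p = 0.7 by edgeR). Of 11 adhesion genes around PINCH and integrin-linked kinase, to which Nck2 binds through Lims1, 0 were called by edgeR, DESeq2 or limma-voom and 1 had an unadjusted p under 0.05, with Lims1 at -0.29 (SE 0.19). By edgeR, 18.5% of all tested genes were called.

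Of 21 genes of the COPII coat and exit sites, 3 rose and none fell (median 0.05), or 14.3% called beside 18.5% of all tested genes. Klhl12, an adaptor of a ubiquitin ligase that acts on the COPII coat, rose to 194, 234 and 218 CPM in libraries labelled Gm1142 knockout, against 95.7, 106 and 80.3 CPM in WT (1.19, SE 0.13, adjusted p = 3.23e-06 by edgeR). Sec24c, a cargo-binding subunit of the coat, rose by 0.55 (SE 0.12, adjusted p = 0.00221 by edgeR) and Sec13, of the outer coat, by 0.52 (SE 0.15, adjusted p = 0.0187 by edgeR), the second lost when Gm1142 knockout 2, WT 1 or WT 3 was left out. Of 6 PKA subunit genes, Prkacb rose and Prkar1a fell (0.49 and -0.48, edgeR adjusted p = 0.0337 and 0.0197), or 33.3% called beside 18.5% of all tested genes. Leaving out 1 library left 0 to 3 calls by edgeR, with 0 without WT 1 or WT 3 and 1 without WT 2 or without Gm1142 knockout 2 or 3.

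**Figure D5:**
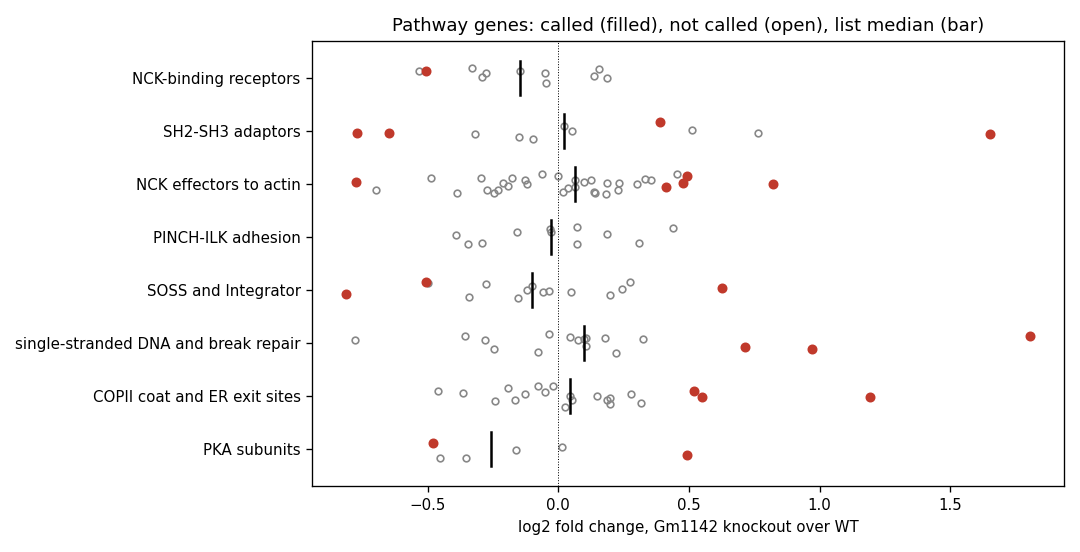
Log2 fold change in the libraries labelled Gm1142 knockout over WT (horizontal axis) of the tested genes of 8 lists (rows); filled points passed the edgeR test at an adjusted p under 0.05, open points did not, and bars are list medians, which lie between -0.26 and 0.10. The points are offset at random in height for clarity, and the 2 farthest right are Ssbp1 (1.80) and Dok1 (1.65).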

How the data were processed

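Raw read counts per gene, deposited by the authors in 1 column per library for 9 libraries, were used as they stand. Per the submitters' processing notes, the tools were cutadapt, Bowtie2, STAR and featureCounts on mm39, with no versions given, and the annotation release, strand setting and treatment of multi-mapped reads are not given in the sources used here. Of 56691 identifiers, 52073 matched a symbol. Counts were fitted with edgeR 4.0.16 in R 4.3.3 (default filter by group, minimum count 10 and minimum total 15, TMM scaling, 1 term per group over all 9 libraries). The quasi-likelihood F-test was adjusted by Benjamini-Hochberg over all 17251 genes tested and called under 0.05. The SE is the size of the log2 fold change divided by the square root of F. CPM values use scaled library sizes. The test was checked on simulated data. Alternatives used RLE factors, other filters, DESeq2 1.42.0, limma-voom (limma 3.58.1), the compared groups alone, the replicate number, removal of mitochondrial genes, and each library left out.

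The genes and lists were chosen with earlier results of these data known. Genes named were the 5 genes, the 3 nearest tested genes on either side of the 3 chosen ones (2 of these 18 are not reported here), the 5 most alike in pattern (leaving out symbols of the Gm and Rik kinds), and up to 4 called genes of each list by smallest p against WT, with others of a list given for their role and Ankrd52 for its overlap. Gene order, exon lengths and overlaps came from GENCODE vM21 and start regions from RefSeq, both on GRCm38 and not on mm39.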

Additional observations from a re-analysis of the deposited data

How the results depend on the processing

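Nck2, Prrc1 and Nabp1 kept their directions in the libraries labelled Gm1142 knockout against WT under every alternative run. With no replicate left out, and with the fit of the compared groups alone included, Nck2 ranged from 3.12 to 3.14. Prrc1 then ranged from 2.05 to 2.07 and Nabp1 from -2.47 to -2.39. Leaving out 1 library gave 3.01 to 3.27, 1.96 to 2.14 and -2.89 to -2.20, and against the double knockout Nabp1 ranged from -2.94 to -2.26, and was at -2.14 without both replicates 2 of the knockout groups (an alternative chosen after seeing the data). With mitochondrial genes and their copies removed before scaling, the values were 3.14 for Nck2, 2.06 for Prrc1 and -2.40 for Nabp1. The call of Nck1 held in every alternative, with an edgeR adjusted p of at most 0.0162 when 1 library was left out, and Nabp2 passed in none. Near 0, signs were unstable in the double knockout against WT. Nck1 was at -0.002 with RLE factors, -0.001 with DESeq2, -0.006 with the compared groups alone, -0.004 without mitochondrial genes, -0.131 without both replicates 2 and -0.145 to 0.107 with 1 library left out, and Nabp2 ranged there from -0.235 to 0.098. In the libraries labelled Gm1142 knockout against WT, leaving out 1 library gave -0.068 to 0.401 for Gm38228, -0.002 to 0.069 for Lmnb1, -0.681 to 0.004 for 4930511M06Rik and -0.175 to 0.264 for Tmeff2. Without both replicates 2, Gm38228 was at -0.066 and Tmeff2 at -0.173.

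Calls over all genes numbered 2037 to 3380 in the libraries labelled Gm1142 knockout against WT and 2128 to 3219 against the double knockout with 1 library left out (lowest without WT 1 and double knockout 2), and 2004 against the double knockout without both replicates 2. In the double knockout against WT, 16 genes were called. With 1 library left out they numbered 9 to 45, with no filter 110, with DESeq2 63, with the compared groups alone 28 and without mitochondrial genes 8. The cause was not tested. The replicate number as a block gave 2921, 16 and 2965 calls in the 3 comparisons and changed the call of neither Nck1 nor Nabp2. Deviations of same-numbered libraries had correlations of -0.267 to 0.101, and those of differently numbered libraries -0.188 to 0.163. The check shows no pairing by number, but with 3 libraries per group it cannot exclude one. A floor of 3 counts in a library equals 0.338 to 0.767 CPM, so the low genes most like Nck2 rest on few reads.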
